A study of Rattus norvegicus with 6 samples.

Results

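The transient receptor potential (TRP) channels described here are 9 genes, Trpv1, Trpv2, Trpv4, Trpa1, Trpm2, Trpm3, Trpm4, Trpm7 and Trpc6, taken by an exact match of their symbols among the 30957 entries of the gene table. All 9 had at least 1 read in every library. RNA was sequenced from the spinal cord of Wistar rats (female, by the study's methods) on day 14, with 3 libraries from the sham-operated group and 3 from the group with bone cancer pain (BCP). BCP rats had living Walker 256 breast cancer cells placed in the marrow space of the left tibia. The same cells, heat-killed, were given to the sham group, so both groups carried the bone injury and the injected material. The tissue was the lumbar enlargement on the operated side, freed of meninges, which holds neurons, glia, vessels and any immune cells within it, and stumps of nerve roots, if left attached, would be part of it. The comparison asked which of these channel genes differed in the spinal cord on that day.

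TRP channels are cation channels, most of which let calcium into the cell, and each opens to its own mix of heat, lipids, chemical irritants, stretch or internal messengers. TRPV1 and TRPA1 are best known from nociceptive sensory neurons, whose central endings lie in the dorsal horn, whereas TRPM2, which is opened by ADP-ribose with calcium and senses oxidative stress, is prominent in microglia and other immune cells. TRPM7 and TRPM3 are broadly distributed in neural tissue.

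The 5′ ends of Trpm2 and Trpc6 are shown because these were the members that rose more than 2-fold. They are RefSeq promoter sequences of the GRCr8 assembly, from 250 bases before to 50 bases after the annotated start, read 5′ to 3′ on the plus strand, at chr20:10704222-10704521 for Trpm2 and chr8:14043966-14044265 for Trpc6. Capitals mark motif matches.
Trpm2: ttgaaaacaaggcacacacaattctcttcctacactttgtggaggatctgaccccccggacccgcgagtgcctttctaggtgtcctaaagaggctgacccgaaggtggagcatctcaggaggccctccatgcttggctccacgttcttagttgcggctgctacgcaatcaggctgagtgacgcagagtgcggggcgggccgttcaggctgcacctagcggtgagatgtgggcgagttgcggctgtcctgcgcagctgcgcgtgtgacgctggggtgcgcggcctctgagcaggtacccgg
Trpc6: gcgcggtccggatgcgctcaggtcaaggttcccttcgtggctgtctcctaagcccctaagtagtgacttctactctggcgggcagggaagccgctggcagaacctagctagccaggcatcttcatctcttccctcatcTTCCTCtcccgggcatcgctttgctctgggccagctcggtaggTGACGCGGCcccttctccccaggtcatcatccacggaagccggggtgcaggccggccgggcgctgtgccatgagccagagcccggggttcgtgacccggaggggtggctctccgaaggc
The motifs searched, on both strands and with N for any base, were GAGGAA (a PU.1-type core, the myeloid factor), TTCNNNGAA (a STAT-type palindrome), GAAA, any 2 bases and GAAA again (an interferon response core), GGGAC followed by TTTCC (an NF-kappa-B type), TGACNNNGC (an antioxidant response core), TGACGTCA (a cyclic AMP response element) and TATAAA (the TATA box). The Trpm2 window held none of these letters. The Trpc6 window held GAGGAA on the opposite strand, read as TTCCTC from position -112, and TGACGCGGC, a match to TGACNNNGC, from position -69, counted from the start site. Of 33469 rat promoter windows of this length, 27.6% held GAGGAA and 12.1% held TGACNNNGC, so both matches are common letters. The shares were 8.87% for the STAT type, 3.92% for the interferon core, 0.111% for the NF-kappa-B type, 1.83% for the cyclic AMP element and 14.2% for the TATA box. Of the other members, Trpm3 held GAGGAA in 1 of its promoter windows and a STAT-type match in the other, and the windows of Trpv1, Trpv2, Trpv4, Trpm4 and Trpm7 held none of these letters. Promoter sequences were matched for 8 of the 9 members, Trpa1 being the exception, and GC content was 61.67% for Trpm2 and 65.33% for Trpc6 against a median of 51.67% over all windows.

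Gene counts came to between 11779485 and 15004290 per library, and 14908 genes passed the filter on low counts. BCP libraries held more RNA of immune cells and less of myelin. All 8 T cell markers tested and 11 of 12 microglia and macrophage markers rose past both thresholds, which were an adjusted p under 0.05 and a change over 2-fold. Of all genes tested, 6.35% did. All 8 oligodendrocyte markers and 6 of 12 neuronal markers fell on adjusted p alone, as did 12.1% of all genes tested. In bulk tissue, fewer cells of a type and less RNA per cell cannot be told apart. The sources used here do not say whether each library came from a separate animal, and the p-values measure only the spread between these libraries.

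Trpm2 and Trpc6 were higher in BCP past both thresholds. The fold changes were 3.90 for Trpm2 and 2.70 for Trpc6. Trpv2 was higher by less than 2-fold, Trpm3 and Trpv1 were lower by less than 2-fold, and neither Trpm7 nor Trpm4 passed. Trpv4 and Trpa1 had too few reads to be tested. Of the 7 members tested, 2 rose past both thresholds, a call made for 6.35% of all genes tested. In edgeR 0 fell past both (0.107% of all genes), also in its exact test, in DESeq2 and at an unadjusted p under 0.05, and 3 rose and 2 fell on adjusted p alone, against 15.8% and 12.1% of all genes. The median log2 fold change (log2FC, BCP minus sham) of the 7 was 0.10, and over all genes tested it was -0.01. The libraries of the 2 groups did not overlap, BCP being higher, for Trpm2, Trpc6, Trpv2 and Trpm7, a pattern of 21.7% of all genes tested, and BCP being lower for Trpm3 and Trpv1, a pattern of 19.8%.

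**Figure D1:**
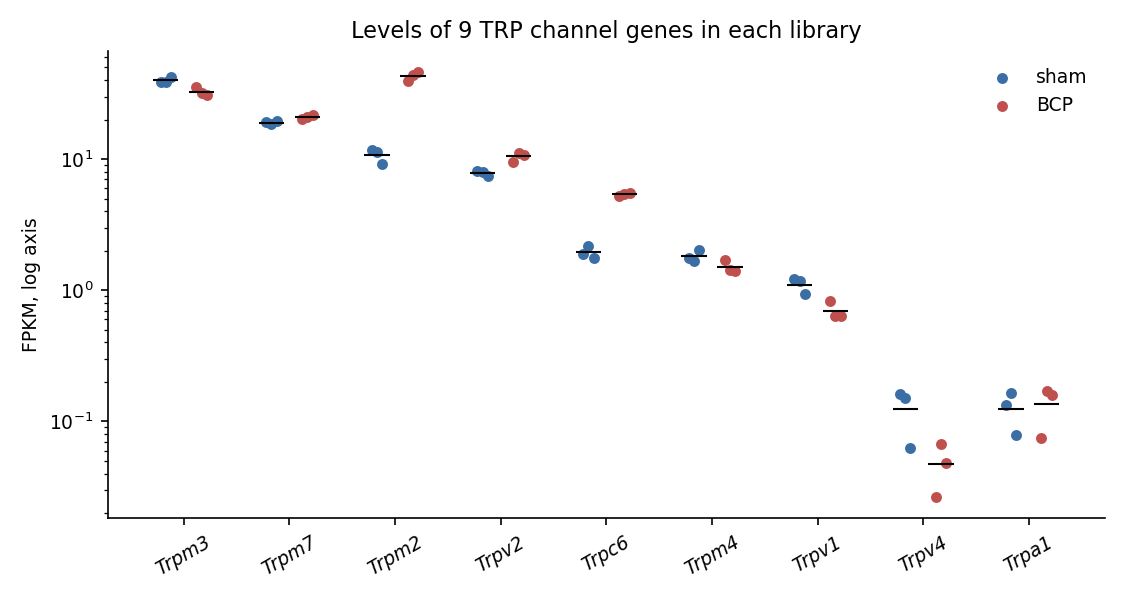
Level per length of the 9 members (FPKM on a log axis, fragments scaled to gene length and library depth) in each of 3 sham (blue) and 3 BCP (red) libraries, with black lines for group means. Trpm2 moved from the third highest mean, 10.8, to the highest, 43.1, while Trpv4 and Trpa1 stayed under 0.2 in every library.

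Levels of different genes were compared per length, in FPKM, the authors' values. In sham libraries the mean was highest for Trpm3, at 39.8 ± 2.08 FPKM (SD, n = 3), followed by Trpm7 at 19.0 ± 0.486, Trpm2 at 10.8 ± 1.34 and Trpv2 at 7.83 ± 0.344 FPKM. Lower FPKM levels were those of Trpc6 (1.95 ± 0.214), Trpm4 (1.81 ± 0.181) and Trpv1 (1.10 ± 0.153), and Trpv4 and Trpa1 both averaged 0.125 FPKM. Neighbours in this order were separate in their 3 libraries except for Trpc6 with Trpm4 and Trpv4 with Trpa1. In BCP libraries the order was Trpm2 at 43.1 ± 3.25 FPKM, Trpm3 at 32.6 ± 2.54, Trpm7 at 21.0 ± 0.673, Trpv2 at 10.5 ± 0.852, Trpc6 at 5.40 ± 0.163, Trpm4 at 1.51 ± 0.162, Trpv1 at 0.701 ± 0.117, Trpa1 at 0.136 ± 0.0527 and Trpv4 at 0.0475 ± 0.0207, and no neighbours overlapped. Trpm2 thus went from rank 3 to rank 1, and Trpm3 and Trpm7 each moved down a place. The separation of Trpa1 from Trpv4 in BCP libraries rested on 3, 8 and 7 against 1, 3 and 2 reads, too few to order them. Trpm2 made up 11.1% to 14.2% of the summed FPKM of the 9 members in sham libraries and 35.2% to 39.4% in BCP libraries, and Trpm3 made up 46.7% to 50.7% and then 26.2% to 31.4%.

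Trpm2 (ENSRNOG00000001216, chr20:11436267-11482051 on Rnor_6.0) encodes the channel gated by ADP-ribose. It had 715, 747 and 632 reads in sham libraries 1 to 3 and 2129, 2735 and 2724 reads in BCP libraries 1 to 3. As CPM, counts scaled to TMM library sizes, these were 54.5, 52.2 and 42.7 in sham and 180, 195 and 206 in BCP. The lowest BCP library was above the highest sham library, and sham library 3 was the lowest of all. The mean rose from 49.8 ± 6.26 to 194 ± 13.2 CPM (SD, n = 3), a log2FC of 1.96 ± 0.0876 (SE, 95% interval 1.77 to 2.16) with an adjusted p of 4.24e-08 by edgeR's quasi-likelihood test with Benjamini-Hochberg adjustment. By this log2FC Trpm2 stood at percentile 96.7 of the 14908 genes tested.

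Trpc6 (ENSRNOG00000006324, chr8:6811543-6917535) encodes a channel opened by diacylglycerol downstream of phospholipase C. In sham it had 94, 118 and 99 reads and in BCP 229, 280 and 267, or 7.17, 8.24 and 6.69 CPM against 19.4, 20.0 and 20.2 CPM. The groups did not overlap, and the BCP libraries lay within 1 CPM of each other. The mean rose from 7.37 ± 0.795 to 19.9 ± 0.447 CPM (SD, n = 3), a log2FC of 1.43 ± 0.124 (SE, 95% interval 1.17 to 1.69) with an adjusted p of 2.71e-08 in the same edgeR fit. Its level per length was below that of Trpm2 in both groups.

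Among the vanilloid members, Trpv2 (ENSRNOG00000003104, chr10:48903540-48925030), a channel also present in macrophages, had 304, 321 and 313 reads in sham and 316, 432 and 393 in BCP libraries, or 23.2, 22.4 and 21.2 CPM and 26.7, 30.9 and 29.8 CPM. Every BCP library was above every sham library after scaling. Its log2FC was 0.39 ± 0.0909 (SE, 95% interval 0.20 to 0.58), 1.31-fold, with an adjusted p of 0.00265 (edgeR). It did not pass a test against a fold change of 1.2 (adjusted p = 0.202).

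Trpv1 (ENSRNOG00000019486, chr10:59799123-59824674), the capsaicin and heat receptor, had 71, 74 and 61 reads in sham and 43, 38 and 36 in BCP libraries. These were 5.41, 5.17 and 4.12 CPM against 3.64, 2.72 and 2.73 CPM, with no overlap. The mean was 4.90 ± 0.686 CPM in sham and 3.03 ± 0.528 CPM in BCP (SD, n = 3), and the log2FC was -0.70 ± 0.221 (SE, 95% interval -1.16 to -0.24) with an adjusted p of 0.0225 (edgeR). At these counts the call was not firm, since the adjusted p was 0.0593 with DESeq2 and in edgeR rose to 0.0781 without sham 1, 0.0790 without sham 2, 0.0902 without BCP 2 and 0.0831 without BCP 3. Of 6 markers of sensory ganglion and nerve root tested, 2 fell on adjusted p (12.1% of all genes did) and 3 at an unadjusted p under 0.05 (edgeR). The 2 were Calca, the gene of the neuropeptide CGRP, which fell by 0.66 on the log2 scale, and Prph, the peripherin gene, by 0.34. The log2FC of the 6 went from -1.19 to 0.13, with a median of -0.37. The summed level of that list was 311 to 329 CPM in sham and 230 to 280 CPM in BCP libraries. Its nociceptor sodium channel genes Scn10a and Scn11a were at most 0.763 CPM in any library and Mrgprd had no reads. Neither the cells that the transcripts of this list came from nor their part in the Trpv1 value was tested.

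Trpv4 (ENSRNOG00000001195, chr12:47698947-47737902), which responds to osmotic swelling and warmth, and Trpa1 (ENSRNOG00000007354, chr5:3783247-3836485), the receptor for reactive irritants, were near the limit of detection. Trpv4 had 7, 7 and 3 reads in sham and 1, 3 and 2 in BCP libraries, 17 against 6 in all. Trpa1 had 6, 8 and 4 reads in sham and 3, 8 and 7 in BCP libraries, 18 in each group. The groups overlapped for both genes, and no difference was detectable at this depth. Without the filter on low counts their log2FC were -1.35 for Trpv4 (adjusted p = 0.264, edgeR) and 0.10 for Trpa1 (adjusted p = 0.944).

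Trpm3 (ENSRNOG00000027770, chr1:240355149-240757583), a heat channel also opened by the neurosteroid pregnenolone sulfate, had the highest level per length of the members in sham libraries. It had 3387, 3661 and 4151 reads in sham and 2740, 2858 and 2605 in BCP libraries, or 258, 256 and 280 CPM and 232, 204 and 197 CPM. Each BCP library was below each sham library. The log2FC was -0.33 ± 0.0581 (SE, 95% interval -0.45 to -0.21) with an adjusted p of 0.000363 (edgeR), a 1.26-fold lower level in BCP, and Trpm3 did not pass the test against a fold change of 1.2 (adjusted p = 0.311).

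Trpm7 (ENSRNOG00000057806, chr3:119259467-119330345), a magnesium-permeable channel with a kinase domain, had 1442, 1517 and 1653 reads in sham and 1352, 1641 and 1586 in BCP libraries. After scaling these were 110, 106 and 112 CPM against 114, 117 and 120 CPM, so the BCP libraries were all higher by a small margin. The log2FC was 0.10 ± 0.0507 (SE, 95% interval -0.0034 to 0.21; adjusted p = 0.148, edgeR), and with library size alone as the scaling it was 0.14 with an adjusted p of 0.0424. Trpm4 (ENSRNOG00000020714, chr1:101293409-101323960), a calcium-activated channel that passes sodium but not calcium, had 115, 117 and 147 reads in sham and 97, 96 and 88 in BCP libraries, or 8.77, 8.17 and 9.93 CPM and 8.20, 6.86 and 6.66 CPM. BCP library 1 lay within the sham range. The log2FC was -0.31 ± 0.157 (SE, 95% interval -0.64 to 0.02; adjusted p = 0.156, edgeR).

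**Figure D2:**
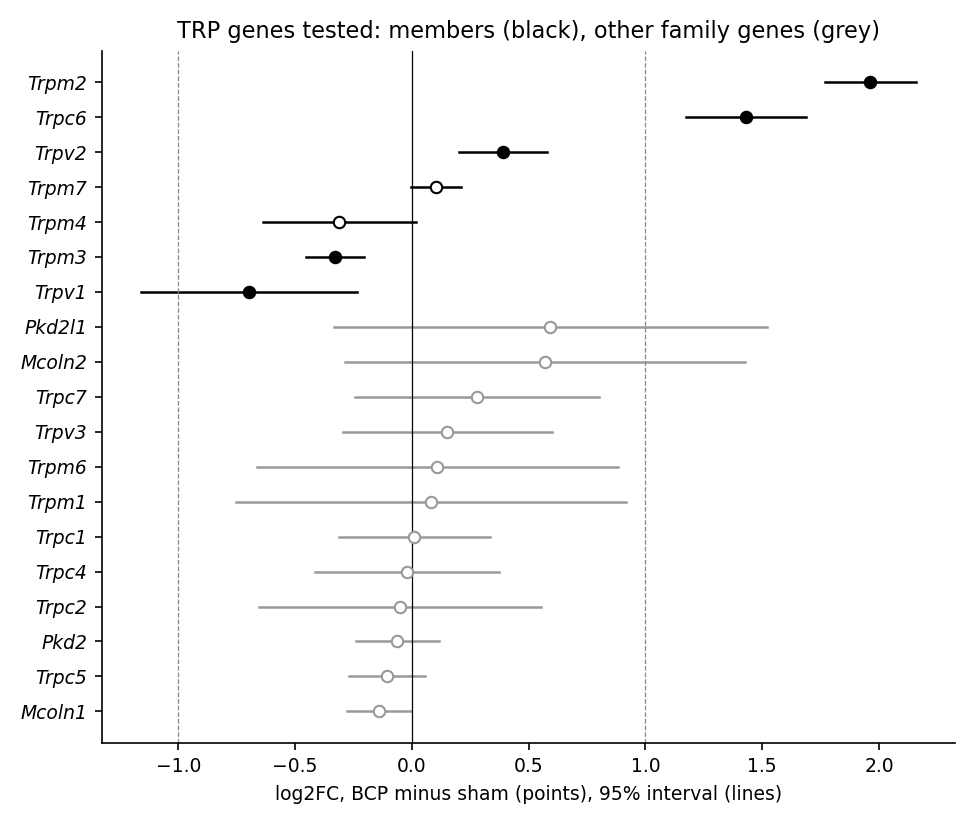
log2FC (BCP minus sham) with 95% interval of the 7 members tested (black) and of 12 of the 13 other TRP family genes tested (grey), filled where the adjusted p was under 0.05 and with dashed lines at a 2-fold change. Trpm2 (1.96) and Trpc6 (1.43) lie wholly beyond the right dashed line, and all 12 other family genes shown are open.

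Other genes of the family were fitted in the same way. Of 19 other TRP genes, 13 were tested and 0 passed in edgeR's quasi-likelihood test, in its exact test or in DESeq2, with 2 at an unadjusted p under 0.05, both lower in BCP. Their median log2FC was 0.01. Among the canonical genes, Trpc7 had a log2FC of 0.28 (95% interval -0.24 to 0.80). Trpc1, Trpc2, Trpc4 and Trpc5 had log2FC of 0.01, -0.05, -0.02 and -0.11. In the melastatin group Trpm1 had 0.08 and Trpm6, the close relative of Trpm7, 0.11. Trpv3, whose span lies 6567 bases from that of Trpv1, had 0.15 (adjusted p = 0.653). The mucolipins of lysosomes had -0.14 for Mcoln1, which at 31.4 FPKM in sham and 29.3 FPKM in BCP was the highest of the other TRP genes, and 0.57 for Mcoln2. The polycystins had -0.06 for Pkd2 and 0.59 for Pkd2l1, the marker of cells that contact the cerebrospinal fluid. Trpv5 had no reads, and Trpm5, Trpm8, Trpv6, Mcoln3 and Pkd2l2 had at most 7 in any library and were not tested.

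Microglia were compared beside Trpm2 because markers of that cell type moved with it. The summed level of 9 homeostatic microglia genes, such as P2ry12, Tmem119 and Cx3cr1, was 339 to 400 CPM in sham and 649 to 754 CPM in BCP libraries, 1.84 times higher on average, and 3 of the 9 rose past both thresholds. Trpm2 was 13.6%, 13.5% and 12.6% of that sum in sham and 27.7%, 29.6% and 27.3% in BCP. The sum of 12 microglia and macrophage genes, such as Aif1, Itgam and Cd68, went from 147 to 211 CPM in sham to 853 to 1089 CPM in BCP libraries, 5.24 times higher on average, and against it Trpm2 went from 25.9%, 26.5% and 29.1% to 21.1%, 20.3% and 18.9%. Trpm2 therefore rose more than the sum of the first list and less than the sum of the second. Trpc6 stood in the same place between the 2 sums, with 1.97% ± 0.175 of the first sum in sham and 2.90% ± 0.189 in BCP (SD, n = 3), and 4.05% ± 0.593 and then 2.07% ± 0.207 of the second. Single genes varied, with log2FC from -0.13 to 1.44 in the first list and from 0.52 to 3.66 in the second. T cell markers summed to 6.08 to 6.64 CPM in sham and 52.1 to 62.0 CPM in BCP libraries, and monocyte and neutrophil markers to 9.80 to 14.9 and 111 to 147 CPM. The part of each cell type in the Trpm2 and Trpc6 values was not tested.

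**Figure D3:**
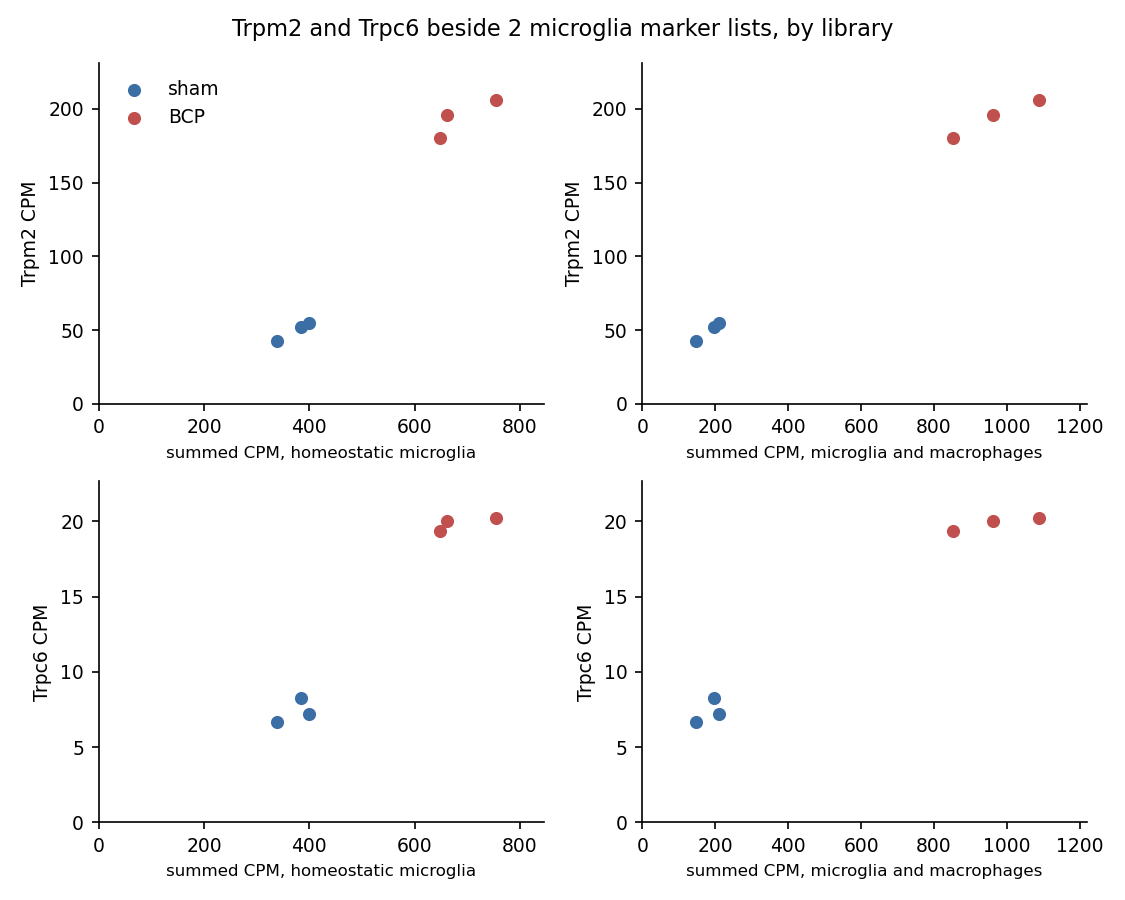
CPM of Trpm2 (top) and Trpc6 (bottom) in each library against the summed CPM of 9 homeostatic microglia markers (left) and of 12 microglia and macrophage markers (right), with sham in blue and BCP in red and all axes from 0. The groups form separate clusters in each panel, and Trpm2 went from 42.7 to 54.5 CPM in sham to 180 to 206 CPM in BCP.

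By Pearson's r of log2(CPM + 0.5) over the 6 libraries, the genes whose pattern was most like that of Trpm2 were Pla2g4a, a phospholipase A2 that frees arachidonic acid (r = 0.9998), RGD1566307 (0.9997), Dock8, a guanine nucleotide exchange factor of leukocytes (0.9995), Amica1, an adhesion molecule of leukocytes (0.9994), and Adcy7, an adenylyl cyclase (0.9994). Pla2g4a was 12.96, 12.92 and 11.01 CPM in sham and 28.3, 30.3 and 31.3 CPM in BCP, so it had the same lowest sham library, and its log2FC was 1.29. The libraries form 2 groups and a value of this kind is easily reached, as 1192 of 14907 genes had r over 0.95 with Trpm2. Trpc6 was at rank 133 of them with r = 0.995, Trpv2 had 0.961, and Trpm3 had the opposite pattern with r = -0.934.

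Of 24 lncRNA transcripts that overlapped a member or lay within 10 kb of one, 10 were tested, and 2, both at Trpm2, rose past both thresholds, a call made for 1.14% of 12157 lncRNAs tested, and the same 2 were those that rose on adjusted p alone (1.57%). BCP libraries were all higher for those 2 (11.0% of lncRNAs) and all lower for 4, near Trpv1, Trpv2 and Trpm3 (9.65%). NONRATT017269.2 (chr20:11468872-11473752) lies inside the span of Trpm2. It had 36, 34 and 40 reads in sham and 98, 126 and 138 in BCP libraries, without overlap, a log2FC of 1.86 ± 0.167 (SE, adjusted p = 0.00253, edgeR). NONRATT017270.2 (chr20:11482118-11482879) starts 67 bases beyond the higher-coordinate end of Trpm2. It had 80, 83 and 99 reads in sham and 336, 387 and 436 in BCP libraries, again without overlap, with a log2FC of 2.29 ± 0.116 (SE, adjusted p = 0.000102, edgeR). The log2FC of Trpm2 itself was 1.96. The sources used here do not name the counter or its use of strand, so reads of the gene and of NONRATT017269.2, inside its span, cannot be told apart. NONRATT017270.2 lies outside the annotated span, and whether Trpm2 transcripts reach into it was not tested.

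**Figure D4:**
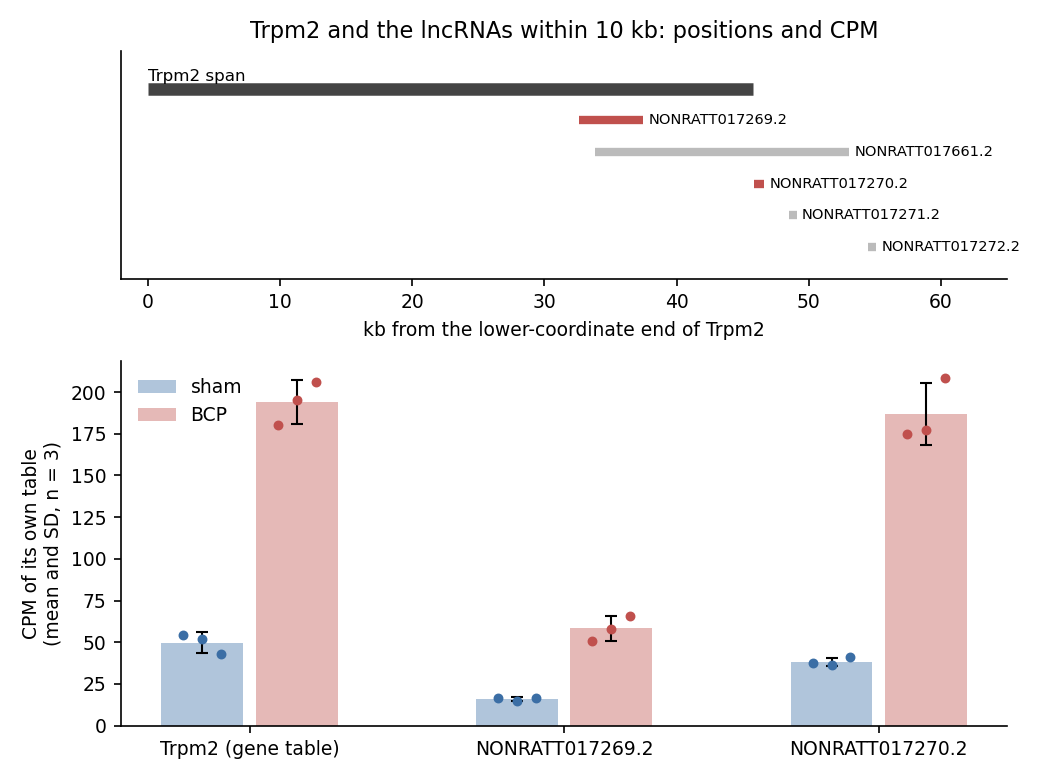
Top, the span of Trpm2 and of the 5 lncRNAs within 10 kb by distance in kb from its lower-coordinate end (red, tested; grey, too few reads). Bottom, CPM of Trpm2 and of both tested lncRNAs, each in its own table, as mean and SD of 3 libraries per group with 1 point per library; NONRATT017270.2 went from 38.2 to 187 CPM and Trpm2 from 49.8 to 194.

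Near the other members, 8 lncRNAs were tested, with little power for those with few reads. In simulated data the fit recovered 4% of 2-fold changes among lncRNAs, against 92% among genes. The simulated lncRNAs were drawn at random and shared the same spread, so the 4% is not a value for these 8. The 95% interval of the log2FC stayed within 2-fold for NONRATT001608.2 (-0.62 to -0.16), NONRATT001609.2 (-0.69 to -0.03) and NONRATT005524.2 (-0.54 to 0.09). So did that of NONRATT001606.2 (-0.59 to 0.96), whereas those of the others reached past 2-fold. Of the 8, 0 passed in edgeR's quasi-likelihood or exact test or in DESeq2 (0.0740% of lncRNAs fell past both thresholds), which does not show that they were unchanged. At an unadjusted p under 0.05 (edgeR) there were 3, all lower in BCP. They were NONRATT004540.2, 9445 bases from Trpv1, with 55, 34 and 41 reads in sham and 13, 9 and 30 in BCP (log2FC -1.18, adjusted p = 0.299), and NONRATT001608.2 and NONRATT001609.2, 1347 and 3929 bases beyond the higher-coordinate end of Trpm3. NONRATT001608.2 had 425, 476 and 457 reads in sham and 306, 290 and 338 in BCP (log2FC -0.39, adjusted p = 0.114), and NONRATT001609.2 had a log2FC of -0.36 (adjusted p = 0.327). Inside the span of Trpm3, NONRATT001606.2 had 0.18 and NONRATT001607.2 had 0.83. At Trpv2 the tested transcripts were NONRATT004376.2 (0.61) and NONRATT005524.2 (-0.23), and at Trpm7 NONRATT019659.2 (0.55). Some lncRNAs had too few reads to be tested and are named here after their values were seen. NONRATT019660.2, within Trpm7, had 26, 10 and 16 reads in sham and 3, 4 and 5 in BCP. In the other direction, BCP libraries were all higher for NONRATT017271.2 (1, 2 and 5 against 7, 6 and 7 reads) and NONRATT017272.2 (5, 7 and 5 against 9, 9 and 8) near Trpm2. So they were for NONRATT004377.2 (2, 2 and 2 against 3, 5 and 5) within Trpv2. For NONRATT017661.2, which overlaps the span of Trpm2, the groups overlapped (5, 5 and 2 reads in sham against 3, 2 and 3 in BCP). No lncRNA lay within 10 kb of Trpa1 or Trpc6.

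Genes tied to the ligands and regulators of the members were counted in lists, whose counts stand against 6.35% of all genes tested that rose past both thresholds and 15.8% and 12.1% that rose and fell on adjusted p alone. The list of ADP-ribose and NAD metabolism held genes that make or remove the ligand of TRPM2 or the NAD it is made from. Of its 14 tested genes, 3 rose and 2 fell on adjusted p, shares near those of all genes, and the median log2FC was 0.02. Those 5 are named here after their values were seen. Nampt, the rate-limiting enzyme of NAD salvage, went from 66.04, 73.5 and 61.5 CPM to 116, 143 and 137 CPM (log2FC 0.98, adjusted p = 5.46e-06, edgeR). Cd38, which makes ADP-ribose and its cyclic form from NAD, had a log2FC of 0.83 and Parp1, the polymerase of ADP-ribose chains, 0.46. The NAD synthases Nmnat1 and Nmnat2 fell by 0.51 and 0.38 on the log2 scale. Bst1, a relative of Cd38, was too low to be tested, with 3, 1 and 3 reads in sham and 6, 10 and 11 in BCP. The groups of libraries did not overlap, BCP being higher, for Nampt, Cd38 and Parp1, a pattern of 21.7% of all genes tested. The same held for Parg, which did not pass (adjusted p = 0.171, edgeR).

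A list of superoxide and peroxide sources also held the superoxide dismutases, which turn superoxide into peroxide, an activating signal of TRPM2. Of 11 tested, 6 rose past both thresholds, all of them parts of the phagocyte NADPH oxidase or its GTPase, and the median log2FC was 2.33. The other 5, the dismutase genes among them, did not pass, with log2FC from -0.13 to 0.10. Ncf1, which organises the complex, went from 11.9, 12.4 and 11.6 CPM to 129, 134 and 173 CPM (log2FC 3.60 ± 0.132, adjusted p = 3.02e-07, edgeR). Cybb, the catalytic subunit, went from 20.1, 18.3 and 13.4 CPM to 75.0, 87.6 and 97.1 CPM (log2FC 2.33 ± 0.163, adjusted p = 6.00e-05). Rac2, Ncf4 and Cyba had log2FC of 3.36, 3.28 and 2.76. These genes are also typical of microglia and leukocytes, whose markers are given above. Of 12 genes that remove peroxide, 2 rose and 3 fell on adjusted p, within 0.76 and -0.18, with a median of -0.10. The 2 were Txn1, the thioredoxin gene, at 0.76 and Gpx1, a glutathione peroxidase, at 0.45, named after their values were seen.

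Upstream of TRPC6, 2 of 10 phospholipase C genes rose past both thresholds and 4 rose and 1 fell on adjusted p. Plcg2, the isoform of immune cells, went from 5.03, 6.98 and 4.80 CPM to 25.96, 27.4 and 30.6 CPM (log2FC 2.32 ± 0.136, adjusted p = 9.51e-11, edgeR). Plcb2, a G protein-coupled isoform, had a log2FC of 1.44 ± 0.213 (adjusted p = 2.90e-05). The median of the 10 was 0.24.

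Of 13 genes tied to sensitization of TRPV1 and TRPA1, 2 rose past both thresholds and 3 fell on adjusted p, and the median was -0.02. The 2 were the prostaglandin E2 receptors Ptger2, with 6, 15 and 8 reads in sham and 20, 35 and 36 in BCP (log2FC 1.74 ± 0.367, adjusted p = 0.00112, edgeR), and Ptger4, with 24, 17 and 12 against 44, 43 and 51 (log2FC 1.48 ± 0.298, adjusted p = 0.000736). Of 9 genes of lipid ligand metabolism, 3 rose past both thresholds, the lipoxygenases Alox12 (1.49) and Alox15 (1.47) and the cyclooxygenase Ptgs2 (1.38). Alox5, the leukotriene enzyme, was the single list gene that fell past both thresholds, with 24, 23 and 42 reads in sham and 15, 14 and 9 in BCP (log2FC -1.10 ± 0.349, adjusted p = 0.0229), and it did not pass in DESeq2.

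**Figure D5:**
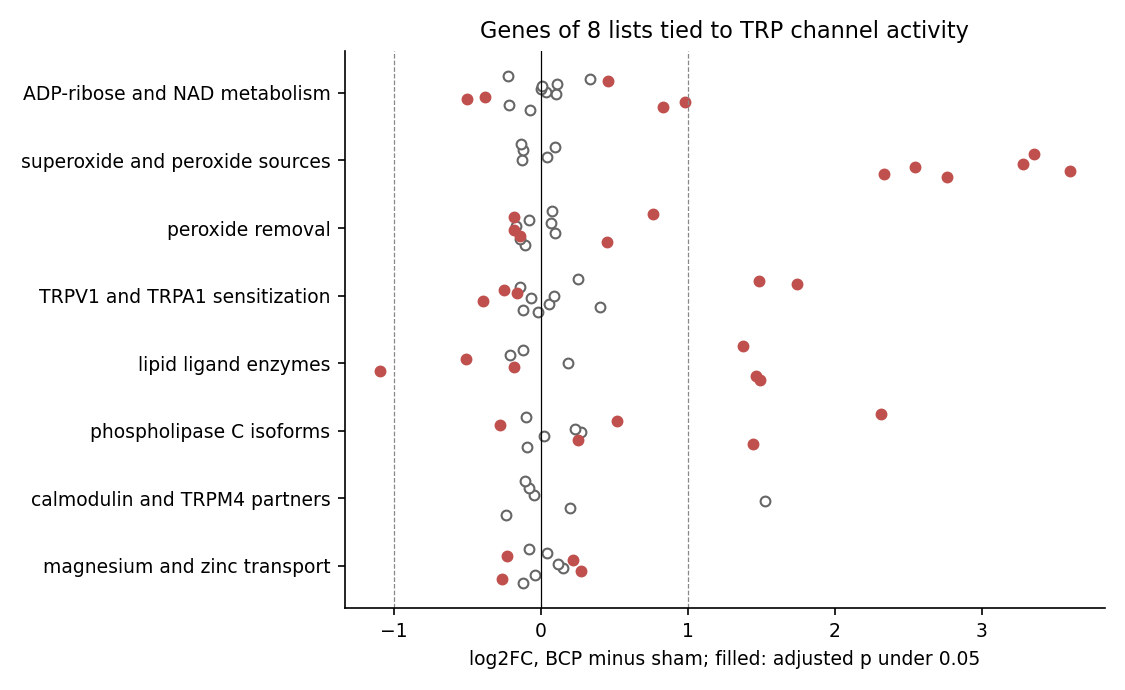
log2FC (BCP minus sham) of every tested gene in 8 lists of ligand, regulator and partner genes, filled red where the adjusted p was under 0.05 and open otherwise, with dashed lines at a 2-fold change. The 6 NADPH oxidase genes lie from 2.33 to 3.60, while every filled gene of magnesium and zinc transport lies within 0.3 of 0.

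Of 10 genes of magnesium and zinc transport, which share ions with TRPM7, 2 rose and 2 fell on adjusted p, from -0.26 to 0.28. Of 6 calmodulin genes and partners of TRPM4, 0 passed in edgeR, with 1 at an unadjusted p under 0.05. Aqp4, the water channel of astrocytes, was 354 to 379 CPM in the sham libraries, 360 and 362 CPM in BCP 2 and BCP 3 and 2415 CPM in BCP 1, so its log2FC of 1.53 (adjusted p = 0.342) rested on 1 library.

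Of the genes that the deposited annotation puts in the KEGG pathway of inflammatory mediator regulation of TRP channels, members left out, 74 were tested, 13 rose past both thresholds (6.35% of all genes did), and 19 rose and 12 fell on adjusted p alone (15.8% and 12.1% of all genes). The median of the 74 was -0.03. Beside the genes named above they included Il1b (2.80), the phosphoinositide 3-kinase subunits Pik3r5 (2.44) and Pik3cg (1.91), Prkcd (1.28), Il1r1 (1.18), Adcy4 (1.13) and Adcy7 (1.07), given as log2FC. Trpm2 and Trpc6 are not in that annotated pathway, whereas Trpv1, Trpv2, Trpv4 and Trpa1 are.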

How the data were processed

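Spinal cord RNA was sequenced in 3 sham and 3 BCP libraries, made from ribosomal RNA-depleted, stranded libraries. The authors mapped Seqtk-filtered reads to the Rnor_6.0 genome (HISAT2 2.0.4) and quantified them with StringTie 1.3.0. They deposited unnormalized counts per gene and per lncRNA transcript, with FPKM values beside them. The counter and its use of strand are not given in the sources used here.

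Groups came from the labels. Counts of genes and of lncRNAs were fitted separately with edgeR 4.0.16 (R 4.3.3): TMM scaling, the edgeR expression filter, a robust quasi-likelihood fit on group and Benjamini-Hochberg adjustment over everything tested, with thresholds of adjusted p under 0.05 and 2-fold. Standard errors were taken from the F statistic. CPM used TMM library sizes. FPKM served only to compare genes. Precision was set by a biological coefficient of variation of 7.72% for genes and 33.4% for lncRNAs. The fits were first tested on simulated data, where adjusted p under 0.05 recovered 92% of 2-fold and 99% of 4-fold changes for genes. For lncRNAs it recovered 4% and 74%. Replicate pairs differed by more than sampling noise (chi-square per degree of freedom 3.48 to 6.04). Figures used matplotlib 3.10.9.

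Named genes were all members, the other TRP genes, list genes past both thresholds, the 5 most like Trpm2 and tested lncRNAs within 10 kb. Some genes of the lists are counted but not reported by name here. Other list genes named were chosen after their values were seen. The members and lists were chosen with earlier results of these data known, and the KEGG list was added after the files were seen. Foxj1, Macrod2, Myh4, Otx2 and Pecam1 were not matched by symbol. Of the other marker lists, astrocytes had 1 rise and 4 falls on adjusted p among 8 tested, and oligodendrocyte precursors 3 falls among 6. Endothelial and mural cells had 1 rise each and meninges 1 fall, each among 6 tested. Ependymal, choroid plexus and muscle lists had no call in edgeR, with 0, 1 and 1 genes at an unadjusted p under 0.05.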

Additional observations from a re-analysis of the deposited data

How the results depend on the processing

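Trpm2, Trpc6 and both lncRNAs at Trpm2 stayed past both thresholds under all 14 alternatives: DESeq2, the edgeR exact test, upper-quartile and library-size scaling, no filter, at least 10 counts in every library, a replicate block, a test against a fold change of 1.2 and leaving out each library (Trpm2 log2FC 1.86 to 2.03, Trpc6 1.36 to 1.52). Members that fell on adjusted p numbered 2, but 1 with DESeq2, 0 against a fold change of 1.2 and 1 to 2 with a library left out, because Trpv1, and against 1.2 also Trpm3, lost its call. Members that rose on adjusted p numbered 3, but 2 against a fold change of 1.2 (without Trpv2) and 4 with library size only (with Trpm7). Other TRP genes that fell numbered 0, but 2 with upper-quartile scaling and 0 to 1 with a library left out, being 1 without sham 1 and 1 without BCP 3. Over the 8 ligand and partner lists, the fall past both thresholds (Alox5) numbered 1, but 0 with DESeq2, with at least 10 counts in every library and against a fold change of 1.2, and 0 to 1 with a library left out, where sham 3, BCP 2 and BCP 3 each ended the call. The 14 falls on adjusted p alone became 1 against a fold change of 1.2, and 21 with upper-quartile scaling. Genes over 0.95 in likeness to Trpm2 numbered 280 by Spearman's rho instead of 1192. The ratio of BCP to sham in Trpm2 per microglia list was 2.13 for the homeostatic list and 0.740 for the microglia and macrophage list.

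The sign of small log2FC turned with upper-quartile scaling for Trpc1 (-0.024) and with library size only for Trpc4 (0.019). With a library left out, values of opposite sign were reached for Trpc1 (-0.14 to 0.13), Trpc2 (-0.25 to 0.11), Trpc4 (-0.15 to 0.12), Trpm1 (-0.56 to 0.37), Trpm6 (-0.31 to 0.43) and NONRATT001606.2 (-0.049 to 0.52). The cause of these changes was not tested.

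No pairing by replicate number was seen: deviations of same-numbered libraries correlated at -0.11, 0.05 and -0.04. Of 3 sham libraries, 1 correlated best with its own number. With 3 libraries per group, these values cannot exclude a pairing. With the replicate block, 2 members rose past both thresholds, and 3 rose and 2 fell on adjusted p, as without it. Over the lists 13 rose past both thresholds, as without it. Depth limits Trpv4, Trpa1 and most lncRNAs, whose libraries also spread more.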
